A study of Mus musculus with 15 samples.

Results

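The NuRD, Sin3, CtBP/CoREST and NCoR corepressor genes were examined in CD4+CD25+ cells of mouse spleen, markers that enrich for regulatory T (Treg) cells. A list of 33 genes was taken by platform annotation symbol. Of these, 32 had a probe set of their own and all 32 were among the 10834 genes tested, out of 19938 named genes. Ncor1, the scaffold gene of the NCoR complex, had no probe set listed under its symbol and was not analysed here. The groups were Ikzf2-/- cells, which lack Helios (3 arrays), Ikzf4-/- cells, which lack Eos (3 arrays), dKO cells, which lack both factors (3 arrays), and wild-type (WT) cells (6 arrays). Each array was made from 15 ng of total RNA, amplified and labelled with biotin. Ikzf4-/- and dKO were compared with WT 1 to 3 (set 1, 9 arrays), and Ikzf2-/- with WT 4 to 6 (set 2, 6 arrays). Age, strain and the number of animals behind an array are not given in the sources used here.

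Helios and Eos belong to the Ikaros family of zinc finger proteins, which are known to repress genes by bringing corepressor complexes to DNA. NuRD joins a nucleosome remodeller to histone deacetylases, Sin3 is a scaffold for the same deacetylases, CtBP links repressors to the CoREST complex with its histone demethylase, and NCoR holds a separate deacetylase. In Treg cells Eos is known to work with CtBP. The comparisons ask whether the genes of this machinery themselves change in level when Helios, Eos or both are missing.

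No corepressor gene passed the test in any knockout. With all arrays, limma called 0 of the 32 members in Ikzf2-/-, in Ikzf4-/- and in dKO, each against WT of its own set. Of all genes tested it called 0.0646% in Ikzf2-/-, 0% in Ikzf4-/- and 0.0646% in dKO. In Ikzf4-/- and dKO the changes of all members lay between -0.17 and 0.16 on the log2 scale. In Ikzf2-/- they lay between -0.31 for Arid4a and 0.65 for Sap30. The median log2 change over the members was -0.01 for each of Ikzf2-/-, Ikzf4-/- and dKO. Over all genes tested it was 0.02 for Ikzf2-/-, 0.01 for Ikzf4-/- and 0.00 for dKO.

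Arrays of the series differ in ways that touch these values. The Ikzf2-/- arrays varied more than the others, with a median member SD of 0.217 against 0.0594 to 0.0998 in the other groups. The array median of the log2 signal ran from 4.82 to 5.01. T cell genes were bright on every array (mean of 4 tested genes 10.46 to 10.99), and Foxp3, the Treg factor, read 10.10 to 11.16. The B cell list (9 of 10 genes tested) was highest in Ikzf2-/- 3 (7.54) and WT 1 (6.60), and the other 13 arrays lay between 4.33 and 5.61. The neutrophil list (7 of 8 genes tested) was highest on the same arrays (9.26 and 6.93). Ikzf2-/- 2 had the lowest Treg list mean (8.89, 8 genes, with the targeted Ikzf2 and Ikzf4 among them). It also had a raised Cd8b1 signal (7.31, against 6.06 to 6.12 on the other set 2 arrays). Y-linked Eif2s3y was present on WT 3, Ikzf4-/- 3, dKO 2 and dKO 3 (7.94 to 8.81) and near 3 elsewhere (2.87 to 3.09). The Ikzf2 probe set read 10.06, 9.145 and 9.22 in Ikzf2-/- against 10.25, 10.38 and 10.38 in WT 4 to 6, and 10.11, 10.16 and 10.59 in dKO against 10.46, 10.74 and 10.76 in WT 1 to 3. Ikzf4 averaged 0.21 higher in Ikzf4-/- than in WT 1 to 3 on the log2 scale and did not pass (limma adjusted p = 1). It is not known here whether these probes fall inside the deleted parts, so they do not check the labels.

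Ikaros family proteins recognise the core GGGAA. It was searched on both strands (GGGAA or TTCCC) in RefSeq promoter windows of GRCm38.p6, each reaching from upstream of a start to just past it, and 25 of the 33 listed genes had a window. The core was present in 60% of the members' 35 windows, against 62.7% of all 32851 windows. The longer form TGGGAA, which contains the core, was in 17.1% of the members' windows and 25.6% of all. The members' promoters thus held neither form more often than promoters at large, and a match is no evidence of binding. As examples, stretches around the core are shown for both CtBP genes, whose proteins are the family's textbook partners, and for Sap30, the member with the widest change, with the core or its complement in capitals and each written along the gene. They lie at chr5:33275126-33275170, chr7:133081916-133081960 and chr8:57487890-57487934, all on the minus strand.
Ctbp1: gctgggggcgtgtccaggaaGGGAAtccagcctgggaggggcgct
Ctbp2: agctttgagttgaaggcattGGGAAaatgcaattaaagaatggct
Sap30: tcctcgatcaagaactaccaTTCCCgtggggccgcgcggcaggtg

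In WT cells, signals of NuRD genes led the order. Probe sets differ in how well they bind, so the order is one of signals and not of transcript amounts. Hdac1, a deacetylase shared by NuRD, Sin3 and CoREST, had log2 signals of 10.22, 10.36 and 10.37 in WT 1 to 3 and 9.91, 9.80 and 9.995 in WT 4 to 6. Mbd2, the NuRD subunit that binds methylated DNA, had 10.27, 10.25 and 10.24 in WT 1 to 3 and 9.98, 9.83 and 9.78 in WT 4 to 6. These ranges overlapped in each set, so their order is not settled. Chd4, the main NuRD remodeller, followed with 10.07, 10.18 and 10.10 in WT 1 to 3 and 9.40, 9.50 and 9.31 in WT 4 to 6. Gatad2b, which bridges the NuRD subunits, had 9.81, 9.81 and 9.69 in WT 1 to 3 and 9.62, 9.65 and 9.69 in WT 4 to 6. Chd3, the other remodeller of the list, had 9.64, 9.69 and 9.66 in WT 1 to 3 and 9.14, 9.36 and 9.24 in WT 4 to 6. All 5 stood at or above the 93.3th percentile of tested genes on every WT array.

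The dim end held CtBP, Sin3 and NuRD genes. Ctbp2, the paralogue of Ctbp1, had the lowest signal, 5.08, 5.08 and 5.09 in WT 1 to 3 and 4.96, 4.98 and 5.12 in WT 4 to 6, close to the filter at log2 4.96 and between the 7.08th and 10.9th percentile. Sap30, a small Sin3 subunit, had 6.40, 5.97 and 5.76 in WT 1 to 3 and 5.55, 5.30 and 5.34 in WT 4 to 6. Both were apart from their neighbours in the order in each set. Sin3b, the second Sin3 scaffold, had 6.96, 6.97 and 6.74 in WT 1 to 3 and 6.11, 6.41 and 5.87 in WT 4 to 6. Brms1, a Sin3-associated repressor first known from breast cancer metastasis, had 6.91 on each of WT 1 to 3 and 6.27, 6.14 and 6.11 in WT 4 to 6. Mbd3, which replaces Mbd2 in a separate form of NuRD, had 7.20, 7.20 and 6.92 in WT 1 to 3 and 6.56, 6.33 and 6.42 in WT 4 to 6. Sin3b and Brms1 overlapped and have no settled order.

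The other 22 members lay between these ends. The scaffold Sin3a averaged 8.36 ± 0.08 in WT 1 to 3 and 7.95 ± 0.15 in WT 4 to 6 (SD, n = 3 each). Of the NCoR genes, the exchange factor gene Tbl1xr1 averaged 8.97 ± 0.06 and 8.79 ± 0.12, its paralogue Tbl1x 8.53 ± 0.02 and 8.03 ± 0.05, Gps2 8.40 ± 0.10 and 8.21 ± 0.11, and the deacetylase gene Hdac3 7.40 ± 0.02 and 6.90 ± 0.12, in the same order of sets. Of the CtBP/CoREST genes, the demethylase gene Kdm1a averaged 8.47 ± 0.01 and 8.10 ± 0.09, the scaffold gene Rcor1 8.13 ± 0.09 and 7.88 ± 0.12, and Ctbp1 7.58 ± 0.12 and 6.89 ± 0.04. Among all 32 genes the order of set means correlated at 0.967 between WT 1 to 3 and WT 4 to 6 (Spearman, across genes, which are not independent, with both sets read on the same probe sets). On 15 pairs of WT arrays it ran from 0.957 to 0.993. Only 6 of the 31 neighbouring pairs in the order were apart on all arrays of each set. Elsewhere neighbours in the order are not settled.

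**Figure D1:**
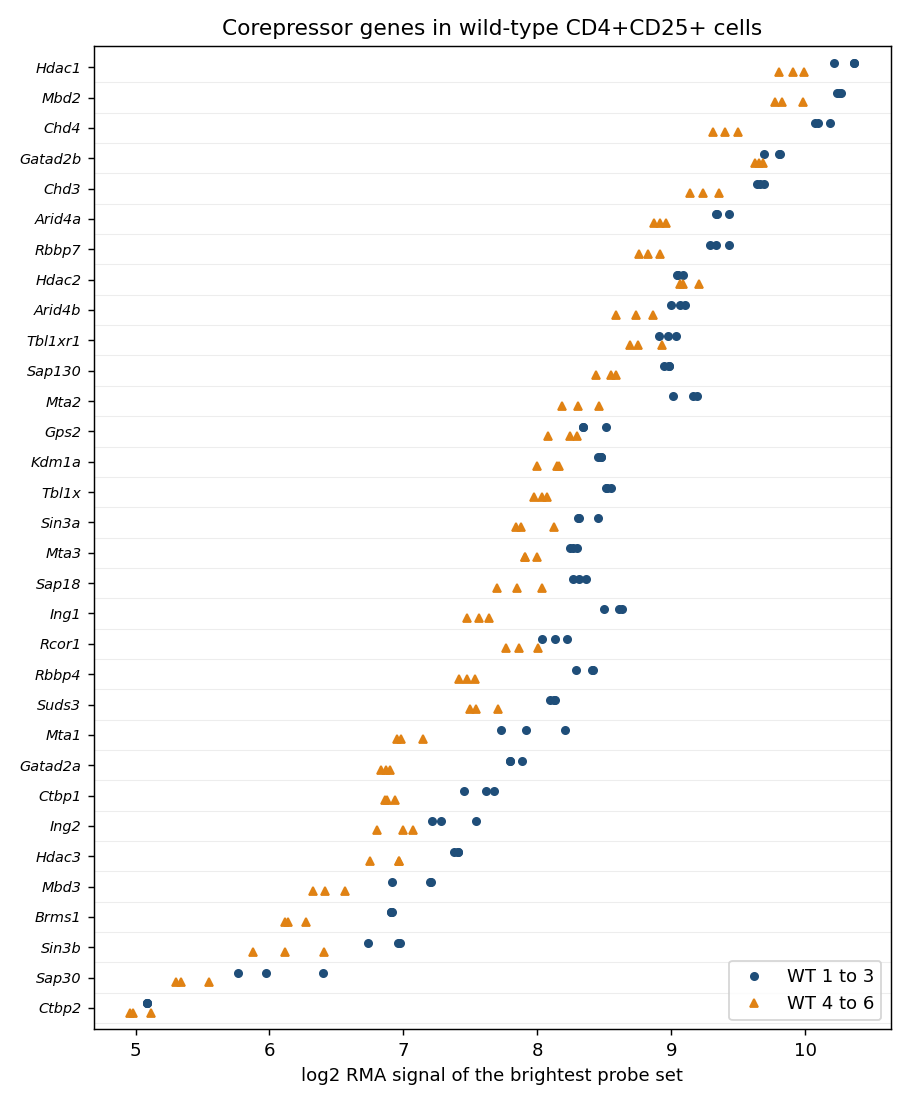
Log2 RMA signal (x axis) of the brightest probe set of each of the 32 members in the 6 WT arrays, sorted by the mean over all 6. Circles are WT 1 to 3 and triangles WT 4 to 6. Hdac1 and Mbd2 lead, Ctbp2 is dimmest near log2 5, and 31 of 32 members read lower in WT 4 to 6.

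Nearly all members read lower in the second set. Their mean was lower in WT 4 to 6 than in WT 1 to 3 for 31 of 32 members, with Hdac2, the close paralogue of Hdac1, as the exception (9.12 ± 0.07 against 9.06 ± 0.03; SD, n = 3 each). The members' median difference was -0.45 on the log2 scale, against -0.39 over all tested genes, of which 84.5% read lower. Ing1, a Sin3 subunit that reads methylated histone H3, had the widest gap, 7.56 ± 0.08 against 8.58 ± 0.07 (SD, n = 3 each).

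In Ikzf2-/- cells the members with the lowest p-values were Sin3 and NuRD genes, as most of the members are, and none passed. Limma called 0 of 32 members at an adjusted p under 0.05, against 0.0646% of all tested genes (7 genes). An unadjusted p under 0.05 was found for 5 members (15.6%), against 16.4% of all genes. Of these, 4 were higher, against 11% of all genes, and 1 was lower, against 5.34%. These shares are near those of all genes. The 3 Ikzf2-/- arrays did not overlap the 3 WT arrays for 4 members (12.5%), against 16.2% of all genes. They were Rbbp7, Mbd2 and Ctbp1, which were higher, and Arid4a, which was lower.

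Sap30, the subunit that helps tie Sin3 to its deacetylases, read 5.43, 6.10 and 6.61 in Ikzf2-/- against 5.55, 5.30 and 5.34 in WT 4 to 6. Ikzf2-/- 1 lay within the WT range and Ikzf2-/- 2 and 3 above it. Its log2 change was 0.65 (SE 0.23, 1.57-fold, limma adjusted p = 0.183). Without Ikzf2-/- 1 the change was 0.96 and passed (limma adjusted p = 0.0217). In that fit 404 of the 10834 genes passed, against 7 with all arrays. Without Ikzf2-/- 3 the Sap30 change was 0.37 (limma adjusted p = 0.407). In set 1 it read 6.09, 5.97 and 5.86 in Ikzf4-/- and 5.93, 5.83 and 6.15 in dKO, inside the 5.76 to 6.40 of WT 1 to 3.

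Arid4a, a Sin3-associated gene whose protein was found as a partner of the retinoblastoma protein, was the only member lower on every Ikzf2-/- array. It read 8.83, 8.38 and 8.61 in Ikzf2-/- against 8.87, 8.96 and 8.91 in WT 4 to 6, with Ikzf2-/- 1 closest to the WT arrays. The log2 change was -0.31 (SE 0.10, limma adjusted p = 0.165). Without Ikzf2-/- 1 it was -0.42 and passed (limma adjusted p = 0.0312), and without Ikzf2-/- 2 it was -0.19 (limma adjusted p = 0.197). In set 1 it read 9.37, 9.39 and 9.43 in Ikzf4-/- and 9.38, 9.18 and 9.38 in dKO, against 9.33, 9.43 and 9.35 in WT 1 to 3. Its paralogue Arid4b had a log2 change of -0.10 in Ikzf2-/- (SE 0.09, limma adjusted p = 0.638). For Arid4b 3 further probe sets carry more than 1 symbol and were not used.

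Rbbp7, a histone-binding subunit of NuRD and Sin3, read 9.04, 9.11 and 9.003 in Ikzf2-/- against 8.91, 8.82 and 8.76 in WT 4 to 6. All Ikzf2-/- arrays lay above the WT arrays, and the log2 change was 0.22 (SE 0.08, limma adjusted p = 0.181). The gene's second probe set gave 0.22 as well. Rbbp4, its paralogue in the same complexes, stood at -0.00 (SE 0.11).

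Mbd2 read 10.01, 10.25 and 10.05 in Ikzf2-/- against 9.98, 9.83 and 9.78 in WT 4 to 6. The groups did not overlap, with Ikzf2-/- 1 close to WT 4, and the log2 change was 0.24 (SE 0.09, limma adjusted p = 0.186). Sap18, another Sin3-associated subunit, read 8.07, 8.41 and 7.94 in Ikzf2-/- against 8.03, 7.85 and 7.70 in WT 4 to 6. These ranges overlapped, and the log2 change was 0.28 (SE 0.12, limma adjusted p = 0.272). Without Ikzf2-/- 2 it was 0.14 (limma adjusted p = 0.425). A further probe set is shared between Sap18 and its near copy Sap18b and was not used, so the Sap18 value is uncertain.

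**Figure D2:**
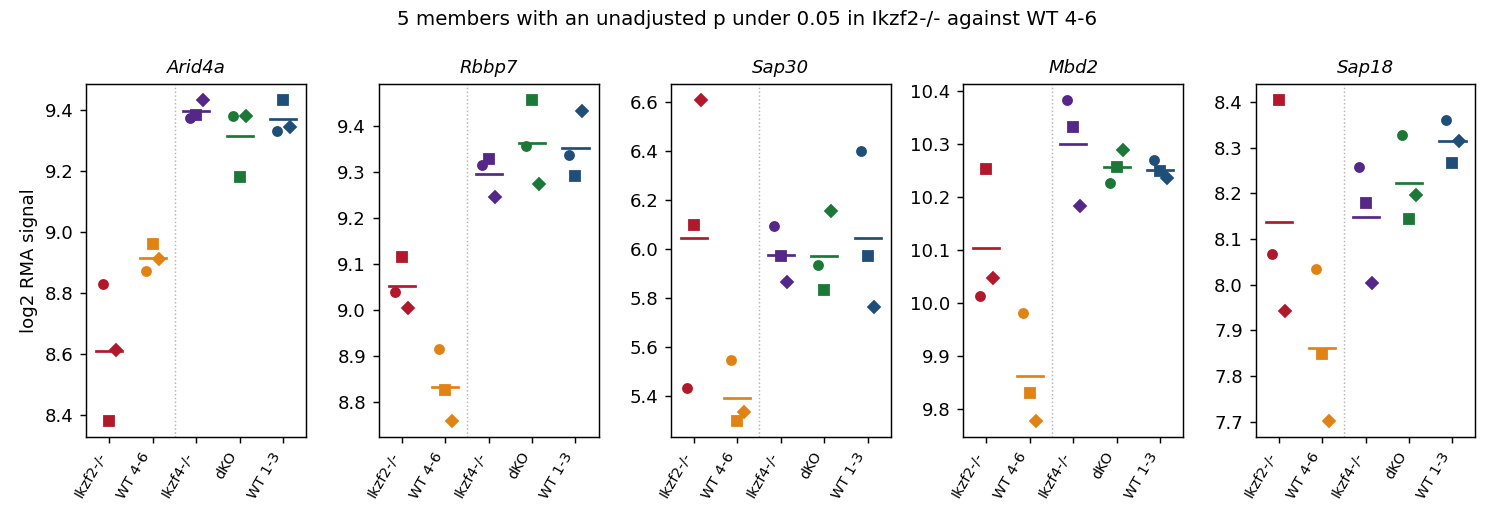
Log2 RMA signal (y axis, own scale for each gene) on all 15 arrays for the 5 members with an unadjusted p under 0.05 in Ikzf2-/- against WT 4 to 6. Circles, squares and diamonds are arrays of a group in number order, horizontal lines are group means, and the dotted line divides set 2 (left) from set 1 (right). Ikzf2-/- arrays spread widely for Sap30 (5.43 to 6.61), and all lie below WT 4 to 6 for Arid4a.

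Further members had wide or uneven values, none at an unadjusted p under 0.05 with all arrays. Tbl1xr1 had a log2 change of 0.32 in Ikzf2-/- (SE 0.15, limma adjusted p = 0.319), reading 9.10, 9.50 and 8.73 in Ikzf2-/- against 8.93, 8.69 and 8.75 in WT 4 to 6. Ikzf2-/- 1 and 2 lay above the WT arrays and Ikzf2-/- 3 within their range. The gene's second, dimmer probe set gave -0.14, so its probe sets disagree in sign. Ctbp1 read 7.07, 6.95 and 7.33 in Ikzf2-/- against 6.86, 6.88 and 6.94 in WT 4 to 6, all higher. Its log2 change was 0.23 (SE 0.13, limma adjusted p = 0.435), and that of Ctbp2 was -0.18 (SE 0.09, limma adjusted p = 0.358). Hdac3 read 7.06, 6.13 and 7.25 in Ikzf2-/- against 6.75, 6.97 and 6.96 in WT 4 to 6. Its Ikzf2-/- SD of 0.597 was the highest of all members, with Ikzf2-/- 2 below the WT arrays and the other Ikzf2-/- arrays above them.

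Ikzf2-/- 2 gave the lowest reading of its group for 19 of the 32 members and the highest for 9. Of the Ikzf2-/- arrays, number 3 gave the highest for 15. Dividing cell genes (15 tested) averaged 7.22, 6.81 and 7.90 in Ikzf2-/-, beside a range of 6.39 to 6.76 over WT 4 to 6, with a positive change in 15 of 15, 9 of them at an unadjusted p under 0.05, where 16.4% of all genes stood. Neutrophil genes (7 tested) averaged 6.64, 5.95 and 9.26 in Ikzf2-/-, beside a range of 4.89 to 5.54 over WT 4 to 6, with a positive change in 7 of 7, 6 of them at that level, and a median of 1.91. The 2 tested macrophage and dendritic genes averaged 7.57, 6.99 and 8.47 in Ikzf2-/-, beside 6.31 to 7.03 over WT 4 to 6. B cell genes averaged 5.61, 4.83 and 7.54 in Ikzf2-/-, beside a range of 4.99 to 5.20 over WT 4 to 6, with 0 of 9 at that level. Sap30 and these lists were each highest on Ikzf2-/- 3. On Ikzf2-/- 1 and 2 they differed. Sap30 read 5.43 on Ikzf2-/- 1 and 6.10 on Ikzf2-/- 2, while each list was higher on Ikzf2-/- 1 than on Ikzf2-/- 2. The part of these lists in the members' values was not tested. In sorted cells measured in bulk, a change in cell makeup and a change in RNA per cell cannot be told apart.

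The size of change that the arrays allow in Ikzf2-/- depends on which arrays are fitted. With the spread shared over all groups, the 95% interval of the change lay within 1.5-fold either way (log2 0.585) for 30 of 32 members in Ikzf2-/- (93.8%, against 80.6% of all genes tested), Sap30 and Tbl1xr1 being the exceptions. With set 2 alone, whose Ikzf2-/- arrays vary more, fewer residual degrees of freedom are left as well. The interval then lay within the bound for 25 of 32 (78.1%, against 71.4% of all genes). Arid4a, Hdac3, Sap18, Sin3b and Suds3 also reached past it. How much the spread and the degrees of freedom each added was not tested. The interval lay within that bound for 32 of 32 members in Ikzf4-/- and in dKO, against 90.2% and 88.3% of all genes. It did so for 32 with set 1 alone as well. Smaller changes of a member remain possible within these intervals.

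**Figure D3:**
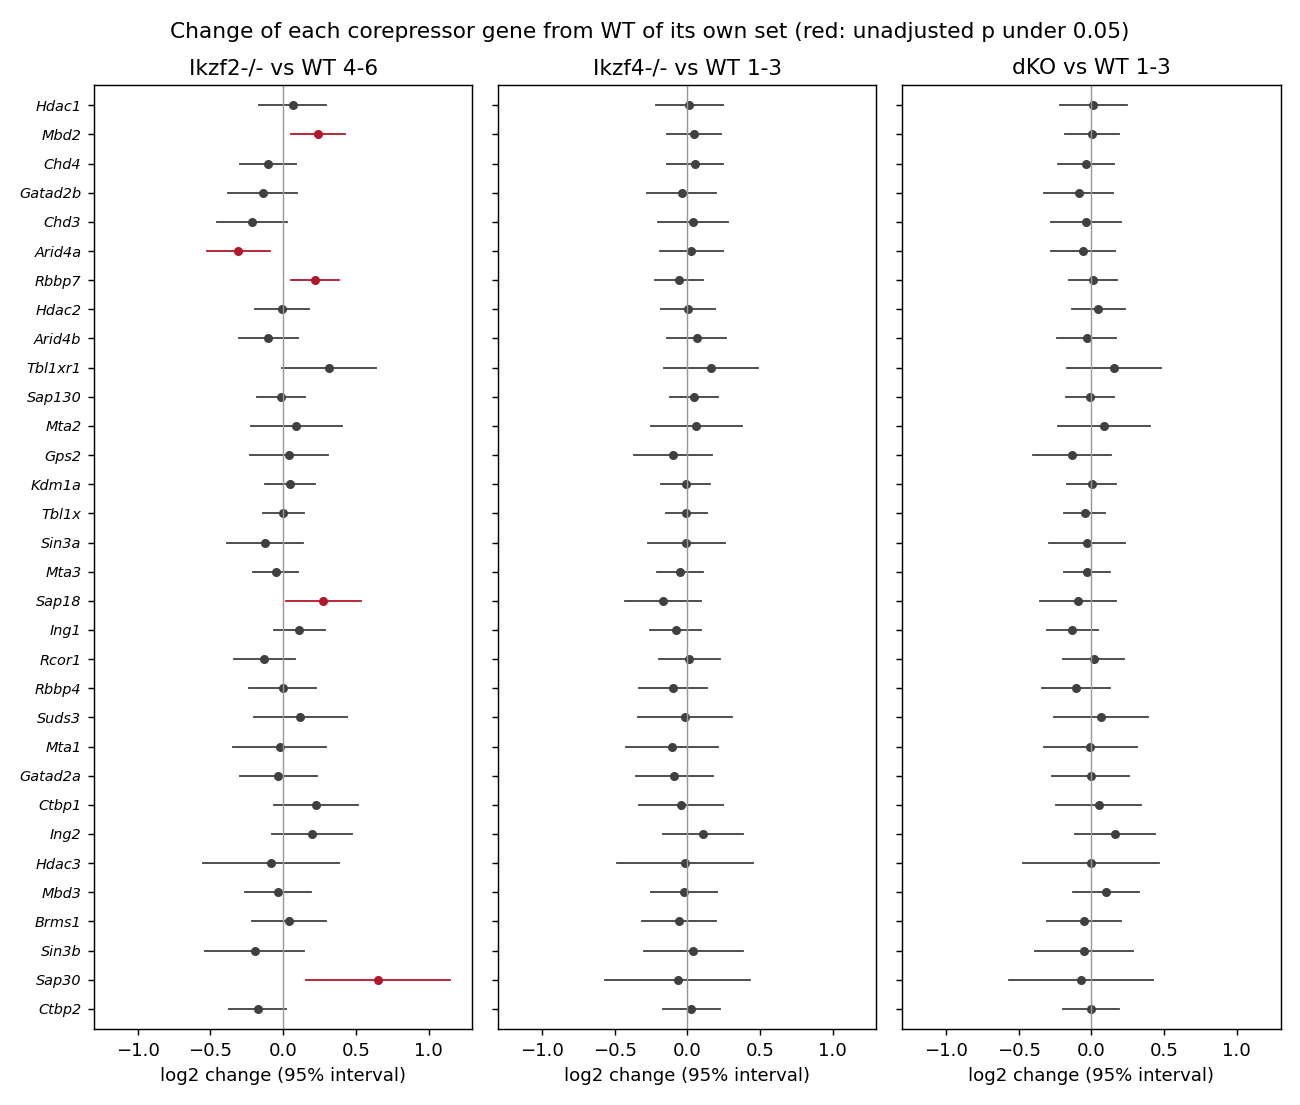
Log2 change (x axis) with its 95% interval for each of the 32 members, in the order of their WT signal, in Ikzf2-/- against WT 4 to 6 (left) and in Ikzf4-/- and dKO against WT 1 to 3 (middle, right). Red marks an unadjusted p under 0.05, which 5 members had in Ikzf2-/- and 0 in the others. No member passed after adjustment over all genes.

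In Ikzf4-/- cells the members read close to WT. Limma called 0 of 32 members, as it called 0% of all tested genes, and 0 members had an unadjusted p under 0.05, against 2.15% of all genes. With a median absolute log2 change of 0.05 the members stood beside 0.06 for all genes. Ctbp1, the gene of the partner known from Eos studies, read 7.80, 7.62 and 7.20 in Ikzf4-/- against 7.68, 7.45 and 7.62 in WT 1 to 3. These values overlapped, with a log2 change of -0.04 (SE 0.13). Ctbp2 stood at 0.03 (SE 0.09), with 5.06, 5.07 and 5.21 in Ikzf4-/- against 5.08 to 5.09 in WT 1 to 3.

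Sap18 had the most negative value in Ikzf4-/-, at 8.26, 8.18 and 8.005 against 8.36, 8.27 and 8.31 in WT 1 to 3, with all 3 below WT and a log2 change of -0.17 (SE 0.12, limma adjusted p = 1). Tbl1xr1 had the most positive one, 0.16 (SE 0.15, limma adjusted p = 1). The arrays did not overlap for 2 members (6.25%), Sap18 and Mta3, a deacetylase-binding NuRD scaffold gene, both lower, against 6.52% of all genes. Mta3 read 8.22, 8.19 and 8.24 in Ikzf4-/- against 8.30, 8.27 and 8.24 in WT 1 to 3, all but touching, with a log2 change of -0.05 (SE 0.07).

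In dKO cells, which lack both factors, the members read near WT as well. Limma called 0 of 32 members, against 0.0646% of all genes, and 0 had an unadjusted p under 0.05, against 4.32%. The values ran from -0.13 for Ing1 (SE 0.08) to 0.16 for Ing2 (SE 0.13), 2 paralogous Sin3 subunits, both with a limma adjusted p = 1. Ing1 read 8.45, 8.37 and 8.53 in dKO against 8.498, 8.61 and 8.64 in WT 1 to 3, and Ing2 read 7.46, 7.60 and 7.46 in dKO against 7.54, 7.22 and 7.28. Each pair of ranges overlapped. Non-overlapping arrays were found for 1 member (3.12%), Tbl1xr1, against 9.52% of all genes. It read 9.22, 9.12 and 9.05 in dKO against 8.91, 8.97 and 9.04 in WT 1 to 3, all but touching. The gene's second, dimmer probe set overlapped, at 7.76, 7.67 and 7.62 in dKO against 7.13, 7.62 and 7.70 in WT 1 to 3. Its log2 change was 0.20.

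The deacetylases and remodellers gave the same picture in dKO. Hdac1 read 10.32, 10.21 and 10.46 in dKO against 10.22, 10.36 and 10.37 in WT 1 to 3, and Hdac2 read 9.22, 9.03 and 9.08 against 9.04, 9.05 and 9.09. Chd4 read 10.13, 10.09 and 10.02 in dKO against 10.07, 10.18 and 10.10 in WT 1 to 3. Hdac3 read 7.56, 7.52 and 7.10 in dKO against 7.41, 7.37 and 7.41 in WT 1 to 3, with dKO 3 below and the other dKO arrays above WT. Dividing cell genes averaged 7.05, 7.82 and 7.51 in dKO against 6.87 to 7.25 in WT 1 to 3. Their part in the values was not tested.

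Set against Ikzf4-/- of the same set, from which it differs by genotype in Helios, dKO again gave 0 called members, against 0.0277% of all genes. At an unadjusted p under 0.05 there were 0 members, against 3.49%. The values ran from -0.10 for Arid4b (SE 0.09) to 0.12 for Mbd3 (SE 0.11), each with a limma adjusted p = 1. Mbd3 alone had non-overlapping arrays (3.12% of members, against 8.27% of all genes), at 7.19, 7.15 and 7.29 in dKO against 7.02, 7.12 and 7.11 in Ikzf4-/-. Arid4a and Sap30, the members with the lowest and the highest change in Ikzf2-/-, stood at -0.08 (SE 0.10) and -0.00 (SE 0.23) here. Dividing cell genes had a positive change in 15 of 15 in this comparison (median 0.70, 5 at an unadjusted p under 0.05), and Eif2s3y was present on 2 of 3 dKO arrays and 1 of 3 Ikzf4-/- arrays. Their part in the values was not tested.

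Whether the dKO change differs from the Ikzf2-/- change was tested directly, as the difference of both within-set changes. Limma called 0 members, as it called 0% of all genes, and 2 members had an unadjusted p under 0.05 (6.25%), against 7.28%. Sap30 differed by -0.72 (SE 0.33, limma adjusted p = 0.674) and Sap18 by -0.37 (SE 0.17, limma adjusted p = 0.675). Without Ikzf2-/- 3 the Sap30 difference was -0.44, and without Ikzf2-/- 2 the Sap18 difference was -0.23. For Arid4a the difference was 0.25 (SE 0.14, limma adjusted p = 0.73). The 95% interval lay within 1.5-fold either way for 26 of 32 members (81.2%), against 61.8% of all genes.

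Read by complex, the mean signals of each complex in Ikzf4-/- and in dKO overlapped those in WT 1 to 3. The mean over the 13 NuRD genes was 9.001, 8.995 and 8.987 in Ikzf4-/- and 9.03, 8.97 and 9.03 in dKO, against 9.01, 9.06 and 8.97 in WT 1 to 3. In Ikzf2-/- it was 8.53, 8.32 and 8.55, against 8.48, 8.49 and 8.44 in WT 4 to 6, with Ikzf2-/- 2 below the rest. The NuRD scaffold genes Mta1 and Mta2 followed that array, at 6.63 and 7.97 in Ikzf2-/- 2 against 6.95 to 7.15 and 8.18 to 8.46 in WT 4 to 6. Gatad2a, the paralogue of Gatad2b, read 6.49 there against 6.83 to 6.90. Not all NuRD genes did so: Mta3 read 7.91 on that array, inside its WT range, and Hdac1, Mbd2 and Rbbp7 had their highest Ikzf2-/- value there.

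The mean over 15 Sin3 genes, Hdac1, Hdac2, Rbbp4 and Rbbp7 included, was 7.84, 7.79 and 7.97 in Ikzf2-/- against 7.86, 7.83 and 7.73 in WT 4 to 6. Suds3, which helps the Sin3 deacetylases pair, read 7.77, 7.26 and 8.07 in Ikzf2-/- against 7.71, 7.49 and 7.54 in WT 4 to 6, and Sap130 read 8.52, 8.57 and 8.43 against 8.59, 8.55 and 8.44. The 6 CtBP/CoREST genes averaged 7.83, 7.83 and 7.81 in Ikzf2-/- against 7.82, 7.82 and 7.81 in WT 4 to 6. This was the narrowest spread of the complex means in set 2, but single genes moved in opposite directions. The log2 change in Ikzf2-/- was 0.23 for Ctbp1, -0.18 for Ctbp2 and -0.13 for Rcor1. The 4 NCoR genes averaged 8.16, 7.89 and 8.10 in Ikzf2-/- against 8.01, 7.99 and 7.94 in WT 4 to 6. The complexes share subunits, so their means are not independent.

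**Figure D4:**
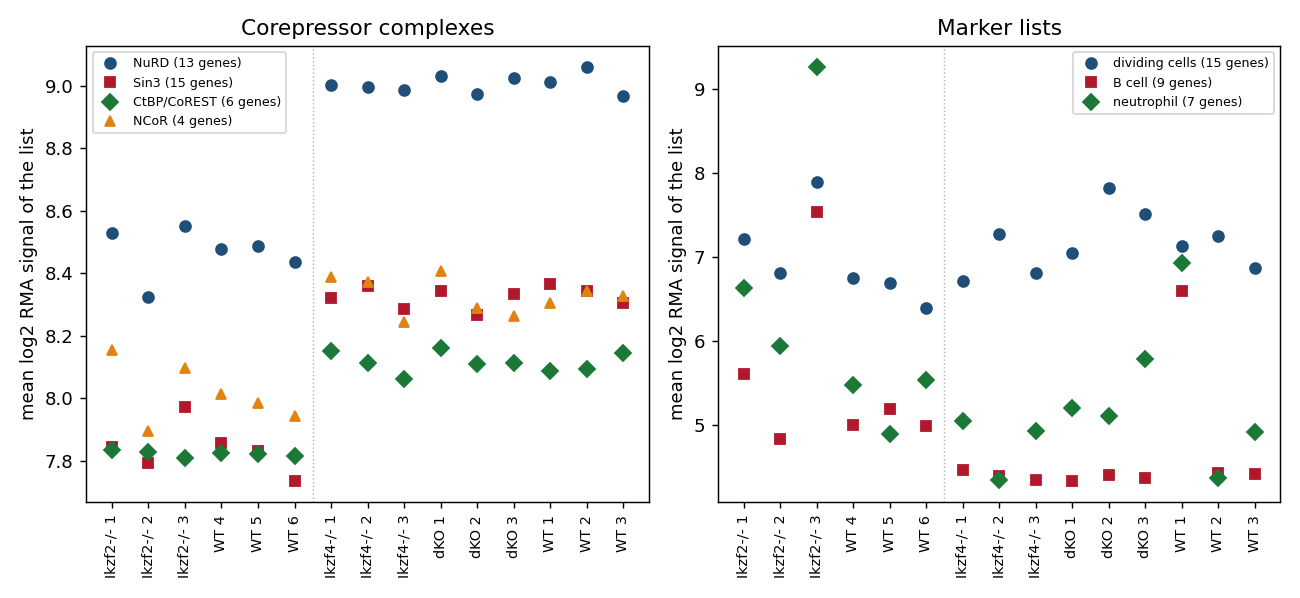
Mean log2 RMA signal (y axis) on each of the 15 arrays over the genes of each corepressor complex (left) and over marker lists of dividing cells, B cells and neutrophils (right), with set 2 left of the dotted line. Complexes lie lower in set 2, Ikzf2-/- 2 has the lowest NuRD mean (8.32), and Ikzf2-/- 3 has the highest B cell (7.54) and neutrophil (9.26) means.

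Set 1 held many exactly equal values, whose part in its SDs was not tested. On its 9 arrays 20 of 32 members had exactly equal values on at least 2 arrays, as did 54.3% of all genes, while in set 2 there were 0 such members and 0.471% of genes. Tbl1x had the same value (8.52) on all 3 Ikzf4-/- arrays. The shared estimate of the spread in the fit draws on both sets.

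Other genes of these complexes were read from a further list of 31, of which 26 were tested, and 0 passed in any comparison. At an unadjusted p under 0.05, 2 were higher and 5 lower in Ikzf2-/-, 1 was higher in Ikzf4-/-, and 1 was lower in dKO. In Ikzf2-/- this was 26.9% of the 26, against 16.4% of all genes, with 7.69% higher, against 11%, and 19.2% lower, against 5.34%. In Ikzf4-/- and in dKO it was 3.85%, against 2.15% and 4.32% of all genes. Coro2a, found in NCoR preparations, had a log2 change of -0.38 in Ikzf2-/- (SE 0.15, limma adjusted p = 0.23) and -0.45 in dKO (SE 0.15, limma adjusted p = 0.792). In dKO against Ikzf4-/- it stood at -0.43 (SE 0.15, limma adjusted p = 1). Cdk2ap1, a small NuRD subunit, stood at 0.46 in Ikzf2-/- (SE 0.12, limma adjusted p = 0.0941), and Phf21a, a CoREST subunit that reads unmethylated histone H3, at -0.27 (SE 0.07, limma adjusted p = 0.108). Rcor3, a paralogue of Rcor1, stood at 0.29 in Ikzf4-/- (SE 0.12, limma adjusted p = 1).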

How the data were processed

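The authors deposited probe set signals on the log2 scale. Expression Console 1.3.1 from Affymetrix and RMA are named per the submitters' processing notes; a genome build was not stated there. The RMA method corrects background, quantile-normalizes arrays and summarises probes, so changes of dim genes are compressed. No label states the division into array sets, which was taken from earlier results of these data and shows in the values. Within set 1, pairs of arrays held exactly equal values in 2290 probe sets on average, within set 2 in 34.4, and across sets in 0.0741.

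Probe sets with 1 symbol (21789 of 35556) were named through the platform annotation, whose symbols were brought to those of GRCm38.p6 by Entrez number, and the brightest probe set stood for a gene. A gene was tested if its mean in any of the 4 genotypes exceeded log2 4.96, the median of all probe set means. This left 10834 genes. One model over the 15 arrays, fitted in R 4.3.3 with lmFit and eBayes of limma 3.58.1, held 5 group means, because the WT arrays of the sets were kept apart. It had 10 residual and 3.73 prior degrees of freedom. Benjamini-Hochberg adjustment ran over every gene tested, with calls at 0.05, after a trial on simulated data. The labels do not say whether replicates are separate animals. If not, the p-values reflect only array spread, possibly technical.

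Deviations of arrays with the same replicate number correlated at 0.135, 0.218 and 0.306 in Ikzf4-/- and WT 1 to 3. In dKO and Ikzf4-/- the correlations were 0.43, 0.197 and 0.267. In dKO and WT 1 to 3 they were 0.0707, 0.0456 and 0.172. Unlike replicate numbers were not correlated for reference, so these values do not show whether the arrays are paired. The members, the other lists and the rule for named genes were chosen with earlier results of these data known. That rule gives array values for members with an unadjusted p under 0.05 and for the 5 brightest and 5 dimmest members in WT, and names up to 4 genes of each other list per comparison. Array values of other members were added after their values were seen. Alternatives covered the filter, scaling, probe set choice, fit, weights, pairing and each array left out.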

Additional observations from a re-analysis of the deposited data

Results flagged for a closer look

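Hdac2 was flagged in WT cells because 1 array lay apart from the rest. It read 9.20 in WT 4, against 9.04, 9.05 and 9.09 in WT 1 to 3 and 9.09 and 9.07 in WT 5 and WT 6. Chance alone flags about 1 in 20 groups drawn from a single population, and 32 members were examined. The 6 WT arrays come from 2 sets, so that rate need not hold here. Hdac2 was also the 1 member that did not read lower in WT 4 to 6.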

How the results depend on the processing

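The count of called members stayed at 0 in Ikzf4-/-, in dKO against WT and against Ikzf4-/-, and for the difference of changes, under every alternative run. In Ikzf2-/- it was 0 under all alternatives but 1: leaving out single arrays gave 0 to 2, the 2 being Arid4a and Sap30 without Ikzf2-/- 1, when 404 genes were called in all. The 5 members with an unadjusted p under 0.05 in Ikzf2-/- kept their direction under all 26 alternatives. Many of these alternatives could not change a direction. The filters, set 2 alone, the compared groups alone and leaving out a set 1 array all keep the same difference of means. The 5 were also picked by an unadjusted p under 0.05 in these same data. The number of members at that level ranged from 1 (set 2 alone, or the compared groups alone) to 7 (without Ikzf2-/- 3). The share of all genes moved too, being 8.57% with set 2 alone or the compared groups alone and 14.6% without Ikzf2-/- 3. There were 2 members without WT 6 (Arid4a and Sap30), against 10.5% of all genes. With array weights there were 3 (Rbbp7, Tbl1xr1 and Ctbp2), against 16.7%. The members at that level were thus not always among the 5. Array weights moved Sap30 to 0.21 and Arid4a to -0.13. The members' median change ranged from -0.05 to 0.07 in Ikzf2-/-, the upper value without Ikzf2-/- 2. For the difference of changes, members with an unadjusted p under 0.05 numbered 0 to 5. With all arrays there were 2 (6.25%), against 7.28% of all genes. The differences ran from -1.03 to -0.27 for Sap30 and from -0.47 to -0.23 for Sap18. A replicate block fitted in set 1 gave 0 called members in each comparison, and Sap18 in Ikzf4-/- was the 1 member at an unadjusted p under 0.05. With that block 4.88% of all genes stood at that level in Ikzf4-/-. The causes were not tested. Ctbp2 lay near the filter, where RMA compresses changes, and the number of arrays limits the precision.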

Other observations

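Chromatin complexes outside the list were also read. Of 17 SWI/SNF genes, subunits of a nucleosome remodeller that Ikaros can join, 16 were tested and limma called 0 in any comparison. In Ikzf2-/- the SWI/SNF subunit genes Actl6a and Dpf2 had log2 changes of 0.42 (SE 0.10, limma adjusted p = 0.0849) and 0.31 (SE 0.08, limma adjusted p = 0.105), and Smarcd1 stood at -0.44 in dKO against Ikzf4-/- (SE 0.11, limma adjusted p = 0.664). Of 8 PRC2 genes, 7 were tested and 0 called. Ezh2, the histone methyltransferase of PRC2, which dividing cells are known to express, stood at 0.39 in Ikzf2-/- (SE 0.10, limma adjusted p = 0.0917). The dividing cell genes had a median change of 0.81 there, and their part in the Ezh2 value was not tested. Aebp2, another PRC2 gene, stood at 0.19 in dKO (SE 0.07, limma adjusted p = 0.901).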
